A study of Mus musculus with 6 samples.

Results

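The genes described here encode the subunits of the serine/threonine protein phosphatases of the PPP class, from PP1 to PP6. They were all genes whose symbol in the platform annotation starts with Ppp and a digit from 1 to 6, counted over probe sets that name a single gene. This gave 79 of 18193 genes on the array, read by 172 probe sets, and the probe set with the highest mean log2 signal over the 6 arrays stood for each gene. By their symbols, 11 encode catalytic subunits and 68 encode regulatory subunits, inhibitors or associated products. Gene expression had been measured in whole testes at postnatal day 21 (P21), with 3 wild-type (Wt) samples and 3 Dazap1 mutant (Fn) samples, each on its own one-colour Affymetrix array. Both groups were of a mixed C57BL/6 and 129 background and received no treatment. According to the methods of the study, the mutants were homozygous for the Fn (floxed with neo) allele, which carries a Neo cassette and encodes an aberrant DAZAP1 with an extra segment between its RNA-recognition motifs. The allele is present in every cell of the animal, most homozygotes die around birth and the survivors are growth-retarded. Their adult testes lack post-meiotic germ cells. The sources used here do not say how many animals a sample holds, so p-values measure only the spread between these samples, which may be in part technical. DAZAP1 is an RNA-binding protein of the hnRNP group, and the comparison of Fn with Wt testes asks which transcripts differ in level when it is altered.

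Serine/threonine phosphatases remove phosphate groups that kinases have added to proteins. A small number of catalytic subunits is shared by many regulatory subunits, which set the substrate, the place in the cell and the activity. PP1 acts through targeting subunits and inhibitors, whereas PP2A is a trimer of a catalytic, a scaffold and a variable B-type subunit. PP3, also called calcineurin, is switched on by calcium through its B subunit and through calmodulin. The testis is known for germ cell forms of these enzymes, among them a splice form of Ppp1cc (PP1 gamma) that is enriched in sperm, and a calcineurin made of Ppp3cc and Ppp3r2 that sperm need for a flexible midpiece.

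Dazap1 itself had signals of 4323, 4462 and 5046 in Wt arrays and 2538, 2735 and 2819.8 in Fn arrays (log2 difference -0.77, limma adjusted p = 6.7e-05), and the sources used here do not say where its probe set lies relative to the altered part of the gene. The deposited values are MAS5 signals, one intensity on a linear scale for each probe set, tested here on the log2 scale with limma's moderated linear model. Benjamini-Hochberg adjustment ran over the 27022 probe sets at or above a geometric mean signal of 48, and a gene passed the test at an adjusted p under 0.05. The median log2 difference of all 13447 genes tested, Fn minus Wt, was 0.32 as deposited, 0.25 after quantile normalization, 0.19 with arrays centred on their 75th percentile and 0.17 with arrays centred on their medians, so small rises depend on the scaling. Markers of late germ cells were lower and those of Sertoli and peritubular cells higher in Fn testes: 16 of 17 pachytene and diplotene genes and 12 of 13 round spermatid genes fell, and 16 of 17 Sertoli genes and 12 of 14 peritubular myoid and stromal genes rose. Among all genes tested 24.7% were lower and 44.9% higher. The germ cell lists include Ccna1, Piwil1, Ovol1, Psme4, Nlrp14, Tssk2 and Spata16, which the study had selected from genes lower on these arrays. The direction of these genes was therefore known beforehand. The summed signal of the pachytene and diplotene list was 106146 to 115033 in Wt and 22948 to 32546 in Fn arrays. That of the round spermatid list was 41508 to 45366 in Wt and 15739 to 17609.9 in Fn arrays, and that of the elongating spermatid list, with 7 of 9 genes lower, was 13206 to 16591 in Wt and 2378 to 2909 in Fn arrays. For the Sertoli list it was 59846 to 69521 in Wt and 99408 to 101618 in Fn arrays, and for the peritubular list 33494 to 43682 in Wt and 70578 to 73605 in Fn arrays. In the Leydig list 5 of 7 genes rose and 0 fell (7584 to 11574 in Wt and 8199 to 14384 in Fn arrays), in the macrophage list 5 of 10 rose and 1 fell (5279.9 to 6793 in Wt and 6813 to 9519.8 in Fn arrays), and in the endothelial list 3 of 9 rose and 0 fell (1063 to 1202 in Wt and 1646 to 2037 in Fn arrays). Germ cell, Sertoli and Leydig markers were thus present in both genotypes, and 0 genes of these lists had a signal of 0 in an array. The share of rises was 50% in the macrophage list, near the 44.9% of all genes, and 33.3% in the endothelial list, under it. In the Leydig list 3 of 7 genes had all Fn values above all Wt values. The study raised the concern that spermatocytes of P21 Fn testes may lag behind those of P21 Wt testes, as the mutants are growth-retarded. For this reason it compared adult Fn with P21 Wt testes on its exon arrays. Fewer cells of a type, less RNA per cell and germ cells at an earlier stage cannot be told apart in whole testes at P21. The part of the cell make-up in the results was not tested.

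Phosphatase subunit genes moved in both directions in Fn testes, among the catalytic as well as the regulatory subunits. Of the 79 genes, 69 were bright enough to be tested, and 28 of them were lower and 26 higher (40.6% and 37.7%), against 24.7% lower and 44.9% higher among all genes tested. Among the 11 catalytic subunits 5 were lower, 4 higher and 2 did not pass. Among the 58 regulatory genes tested 23 were lower, 22 higher and 13 did not pass. The median log2 difference was 0.13 for the catalytic and 0.17 for the regulatory genes, or -0.20 and -0.16 relative to the median of all genes. With arrays centred on their medians the catalytic median was -0.03 and the regulatory one 0.01, so neither median has a settled direction. Under that centring 29 members were lower and 17 higher, so that 63.0% of the calls were falls, against 51.9% as deposited. Over all genes tested the share of falls was 45.3% with that centring and 35.5% as deposited. The difference between the classes was not tested, since genes are not replicates. Members and partner genes that the rule for named genes did not pick are named for their roles, after their values were seen.

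The lowest log2 differences were those of regulatory genes, of which more were tested. Falls of more than 2-fold were found in 12 of the 69 genes tested (17.4%, against 13.9% of all genes). They were 11 of the 58 regulatory genes (19%) and 1 of the 11 catalytic genes (9.09%), namely Ppp3cc. Rises of more than 2-fold were found in 3 (4.35%, against 11.8% of all genes), namely Ppp1ca, Ppp3r1 and Ppp1r9a, each under 2-fold with arrays centred on their medians. In 29 members all Fn values lay below all Wt values and in 28 all lay above them, whereas this held for 26.6% and 48.9% of all genes tested.

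**Figure D1:**
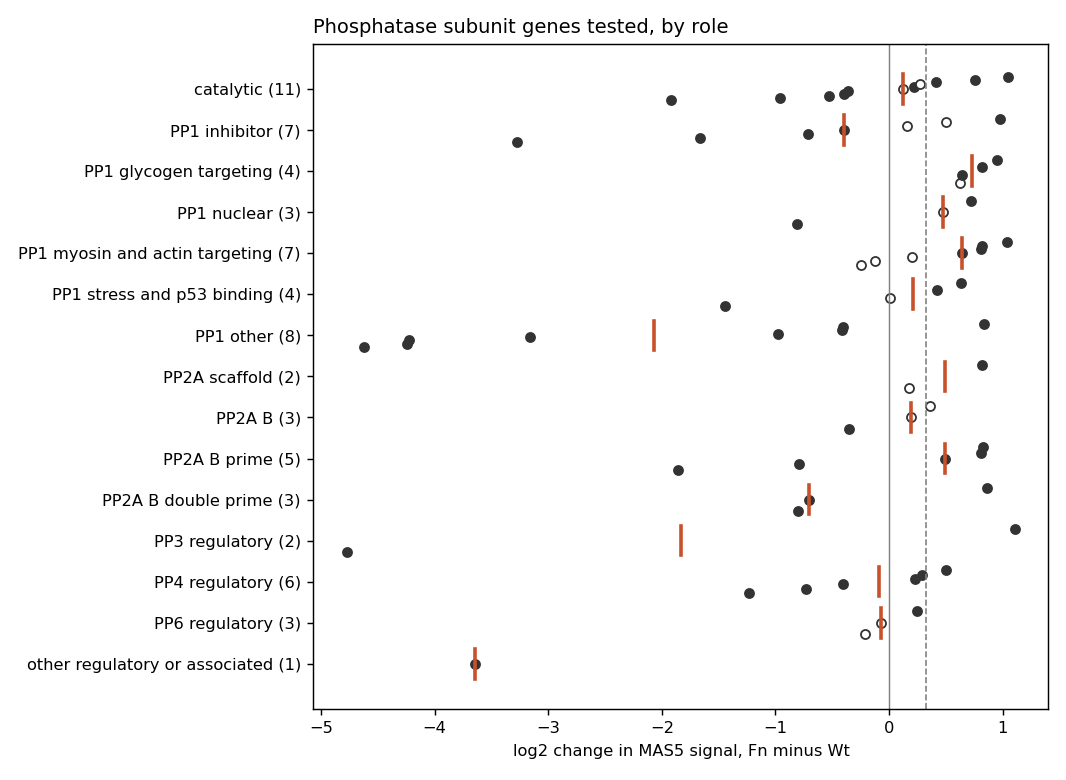
MAS5 signal in Fn relative to Wt testes, as a log2 difference, of the 69 phosphatase subunit genes tested, grouped by role with the number tested in brackets (3 arrays per genotype). Filled points are genes past the limma threshold of 0.05, open points are the others, orange bars mark the median of a role, and grey and dashed lines mark 0 and the all-gene median of 0.32; the catalytic subunits spread from -1.92 to 1.04 and the regulatory genes from -4.77 to 1.11.

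The calcineurin (PP3) subunits known from germ cells were lower in Fn testes and the broadly expressed B subunit was higher. Ppp3r2, the calcineurin B subunit of the testis, had signals of 7709, 6940.0 and 7962 in Wt arrays against 214, 522 and 187 in Fn arrays. All Fn values lay far below the Wt values, with replicate 2 the highest of the 3. The log2 difference was -4.77 (SE 0.31, limma adjusted p = 2e-06), a 27.3-fold fall and the largest among the members tested. Ppp3r1, its broadly expressed counterpart, had 1272, 997 and 948 in Wt and 2447, 2012 and 2446 in Fn testes. Every Fn value was above every Wt value, and the log2 difference of 1.11 (SE 0.13, adjusted p = 9.7e-05) was the highest of the members tested. A weaker probe set of Ppp3r1 moved alike, with a log2 difference of 1.05.

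The windows around the transcription starts of both B subunit genes are shown, from RefSeq on mouse assembly GRCm38.p6. Each holds 250 bases before and 50 bases after the start, written 5′ to 3′ on the strand of the gene, with CpG dinucleotides in capitals. The Ppp3r2 window lies at chr4:49681934-49682233 on the minus strand and has 11 CpG dinucleotides. The Ppp3r1 window lies at chr11:17159048-17159347 on the plus strand and has 36. The median over the windows of all genes tested was 19. The 22 members called lower that had a window had a median of 22.5, and the 23 called higher 25.5, both above it. Whether CpG content bears on the direction of either gene was not tested.
Ppp3r2: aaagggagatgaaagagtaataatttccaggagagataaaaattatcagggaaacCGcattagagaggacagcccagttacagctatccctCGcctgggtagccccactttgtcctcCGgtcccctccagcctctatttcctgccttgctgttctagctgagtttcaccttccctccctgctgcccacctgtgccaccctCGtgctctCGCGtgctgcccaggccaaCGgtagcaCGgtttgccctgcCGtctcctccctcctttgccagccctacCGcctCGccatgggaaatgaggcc
Ppp3r1: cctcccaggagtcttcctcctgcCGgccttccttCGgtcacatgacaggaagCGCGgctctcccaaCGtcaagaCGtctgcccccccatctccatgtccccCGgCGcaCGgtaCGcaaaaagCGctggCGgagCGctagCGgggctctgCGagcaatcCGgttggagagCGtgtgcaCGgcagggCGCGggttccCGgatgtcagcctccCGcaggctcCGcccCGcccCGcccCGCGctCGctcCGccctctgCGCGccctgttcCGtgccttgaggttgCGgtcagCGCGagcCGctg

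The catalytic subunits of calcineurin did not move together. Ppp3cc, the gamma form enriched in testis, had signals of 3113, 2712 and 3227 in Wt arrays against 789.8, 818 and 786 in Fn arrays, a log2 difference of -1.92 (SE 0.099, limma adjusted p = 4.8e-07). The Fn values lay close together and well under the Wt values. Its other probe set was dimmer and gave the same mean in both genotypes, with 548, 347 and 449 in Wt and 464, 415 and 445 in Fn (log2 difference 0.00, adjusted p = 1.0), so the fall was seen by one probe set of the gene and not by the other. With the mean of both, the log2 difference was -0.96. Ppp3ca, the alpha form, fell from a Wt mean of 3933 ± 374 to an Fn mean of 2023 ± 147 (SD, n = 3 each), a log2 difference of -0.96 (adjusted p = 3.5e-05), and each of its 3 probe sets was lower. Ppp3cb, the beta form, had signals of 1511, 1369 and 1349.6 in Wt and 1771, 1917 and 1458 in Fn testes, which overlapped, and did not pass (log2 difference 0.28, adjusted p = 0.067). It was called higher with the replicate number as a block (adjusted p = 0.044), without Fn replicate 3 (adjusted p = 0.014), and with the mean of its probe sets (adjusted p = 0.032).

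Of 15 genes listed as calcineurin partners and NFAT factors, 10 were higher and 1 lower (66.7% and 6.67%, against 44.9% and 24.7% of all genes), with a median log2 difference of 0.80, or 0.48 relative to all genes. The 1 that fell was Spata33, which holds calcineurin at sperm mitochondria, from a Wt mean of 10024 ± 959.8 to an Fn mean of 2372 ± 607 (SD, n = 3 each), a log2 difference of -2.10 (limma adjusted p = 4.2e-06). Rcan3 and Rcan2, which encode calcineurin regulators, had log2 differences of 1.23 and 0.92, while Rcan1 did not pass (0.18, adjusted p = 0.12). The transcription factor genes Nfatc2, Nfat5, Nfatc4 and Nfatc3, whose products are NFAT proteins, rose by 1.10, 0.87, 0.80 and 0.53 on the log2 scale. Chp2, a calcineurin B homologue, rose by 1.26. Myoz2 and Nfatc1 had the largest rises of the list, 1.30 and 1.29.

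Of the PP1 catalytic genes, Ppp1ca and Ppp1cb rose, and the probe sets of Ppp1cc moved in opposite directions. Ppp1ca, encoding PP1 alpha, had signals of 4329.5, 3820.0 and 3385 in Wt and 7383, 8374 and 7943 in Fn testes, a log2 difference of 1.04 (SE 0.098, limma adjusted p = 2e-05). The Fn values were about 2 times the Wt values. Ppp1cb, encoding PP1 beta, went from a Wt mean of 5126 ± 598 to an Fn mean of 6814 ± 641 (SD, n = 3 each), a log2 difference of 0.41 (adjusted p = 0.0062). This call was lost with arrays centred on their medians (log2 difference 0.25, adjusted p = 0.10) and with the mean of the probe sets (0.29, adjusted p = 0.059).

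Ppp1cc was read by a bright and a dimmer probe set. The bright one had signals of 21343, 21189 and 21481 in Wt arrays against 15264, 14984 and 14189.5 in Fn arrays. The spread within each genotype was small, and the log2 difference was -0.53 (SE 0.053, limma adjusted p = 3.1e-05). These signals are near the top of the scale, where the highest of any probe set ran from 26992 to 29796 over the arrays. The dimmer one had 3103, 2857 and 2731 in Wt and 5477, 5275 and 5754 in Fn testes. Here every Fn value was above every Wt value, with a log2 difference of 0.93 (SE 0.08, adjusted p = 1.2e-05). Averaged over both probe sets, Ppp1cc was higher in Fn testes, with a log2 difference of 0.20 (adjusted p = 0.014), so its direction depends on the probe set. The sources used here do not say which splice form each probe set reads.

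**Figure D2:**
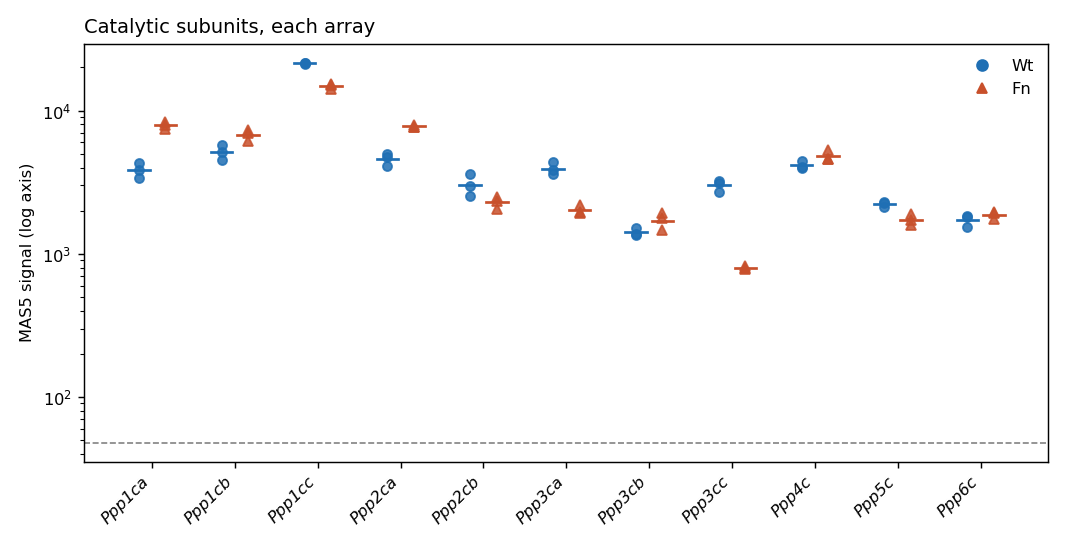
Signal (MAS5, log axis) of the 11 catalytic subunit genes by array, with circles for the 3 Wt and triangles for the 3 Fn samples, by the brightest probe set of each gene. Short bars mark geometric means and a dashed line marks the filter at 48; Ppp3cc and Ppp3ca lie lower and Ppp1ca and Ppp2ca higher in Fn testes, with no overlap between genotypes.

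Of the PP2A catalytic genes, one rose and the other was lower. Ppp2ca, encoding PP2A catalytic alpha, rose from 4938, 4700.0 and 4123 in Wt to 7676, 7676 and 7891 in Fn testes, a log2 difference of 0.76 (SE 0.08, limma adjusted p = 4.4e-05). Ppp2cb, the beta form, was lower, with 2959.7, 2521 and 3629 in Wt and 2317, 2043 and 2505 in Fn testes. The genotypes did not overlap, but the log2 difference of -0.40 (adjusted p = 0.028) did not pass without Wt replicate 1 or 3 or Fn replicate 1 or 2, where the adjusted p was 0.059, 0.092, 0.062 and 0.084. It was also lost without the trend of the prior variance (adjusted p = 0.075) and with the mean of its probe sets (-0.12, adjusted p = 0.78). The other probe set of Ppp2cb lay under the filter, with signals of 4.9 to 22.8, so that mean says little about the gene. Ppp5c, a phosphatase that carries its own regulatory TPR domain on the same chain, fell by 0.36 on the log2 scale (adjusted p = 0.0089).

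Ppp4c, the PP4 catalytic subunit, had signals of 4011, 3959 and 4457 in Wt and 4599, 4623 and 5280.0 in Fn testes. Its log2 difference of 0.22 was just past the threshold (limma adjusted p = 0.046). The call was lost in 9 of 15 alternatives, among them centring on the medians (log2 difference 0.06, adjusted p = 0.68) and leaving out Wt replicate 1 (0.12), Wt replicate 2 (0.13) or Fn replicate 1 (0.064), 2 (0.050) or 3 (0.15), with the adjusted p in brackets. Ppp6c, the PP6 catalytic subunit, had 1821, 1546 and 1815 in Wt and 1939, 1757 and 1947 in Fn testes and did not pass (log2 difference 0.13, adjusted p = 0.3). A second probe set of Ppp6c was higher in Fn testes, by 0.96 on the log2 scale (adjusted p = 0.00014), and with the mean of both the gene was called higher (0.54, adjusted p = 0.0015).

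Ratios of paralogs within an array do not depend on a constant factor per array, and 7 pairs were compared. The change of the log2 ratio from Wt to Fn was -5.88 for Ppp3r2 over Ppp3r1, -2.19 for Ppp3cc over Ppp3cb, -1.57 for Ppp1cc over Ppp1ca and -1.16 for Ppp2cb over Ppp2ca. It was -0.96 for Ppp3cc over Ppp3ca, -0.94 for Ppp1cc over Ppp1cb and -0.64 for the PP2A scaffold pair Ppp2r1b over Ppp2r1a. In each pair the 3 Fn ratios lay below the 3 Wt ratios, and the two-sided exact permutation test gave p = 0.10 for every pair, or 0.10 after Benjamini-Hochberg adjustment over the 7. This is the smallest p that 3 arrays against 3 can give. The changes rest on the brightest probe sets. With the mean of all probe sets Ppp3cc over Ppp3ca changed by -0.16 and Ppp1cc over Ppp1cb by -0.09, whereas Ppp3r2 over Ppp3r1 changed by -5.85. Quantile normalization is no constant factor, and under it the 7 changes ran from -5.85 to -0.77.

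**Figure D3:**
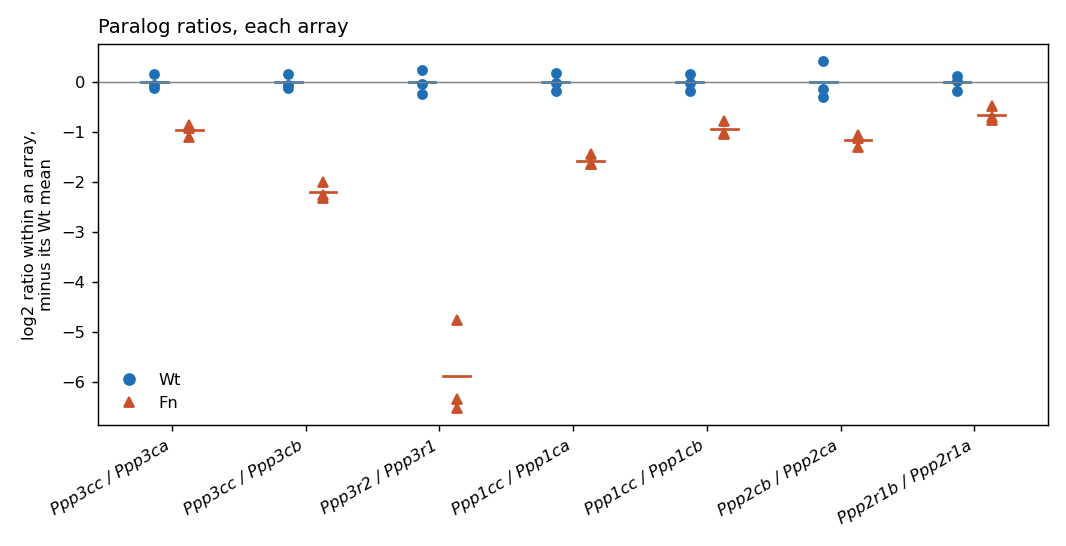
Change of the log2 ratio between paralogs within each array, set to the mean of the Wt arrays, for 7 pairs of subunit genes (circles, 3 Wt arrays; triangles, 3 Fn arrays; short bars, means). In every pair the Fn ratios lie below the Wt ratios, and the calcineurin B pair Ppp3r2 / Ppp3r1 moved furthest, by -5.88.

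Among PP1 regulators, the 3 genes that fell most encode PP1-binding proteins outside the classical inhibitor and targeting families. In this role group 7 of 8 genes were lower and 1 was higher (87.5% and 12.5%, against 24.7% and 44.9% of all genes), with a median log2 difference of -2.07, and the calls of Ppp1r26 and Ppp1r37 depend on single arrays. Ppp1r42, a leucine-rich repeat protein of the testis, had signals of 1099, 1266 and 1199 in Wt and 52.9, 67.3 and 31.3 in Fn testes, a log2 difference of -4.62 (SE 0.26, limma adjusted p = 7e-07). In Fn testes it lay about at the filter level, and a second probe set, which was lower as well, lay under it. Ppp1r32 had 1306, 1174 and 1613 in Wt and 65, 125 and 44.7 in Fn testes, a log2 difference of -4.24 (adjusted p = 4.9e-06). Ppp1r27, also known as dysferlin-interacting protein, had 572, 641 and 699.8 in Wt and 12.7, 77.9 and 39.4 in Fn testes, where the values of the 3 arrays lay far apart. Against the filter level it was at least 13.2-fold lower (adjusted p = 0.00011). Its log2 difference was -4.23, -3.52 without Fn replicate 1 and -4.83 without Fn replicate 2.

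Ppp1r36, a PP1-binding protein of spermatogenic cells, went from a Wt mean of 2372 ± 236 to an Fn mean of 269.8 ± 70.3 (SD, n = 3 each), a log2 difference of -3.16 (limma adjusted p = 7.6e-07). Ppp1r35, which takes part in centriole formation, had 1215, 1259.5 and 1322 in Wt and 631, 661 and 630.2 in Fn testes, so that the Fn mean was 50.6% of the Wt mean (log2 difference -0.98, adjusted p = 3.5e-05). Ppp1r37 and Ppp1r26 fell by 0.42 and 0.40 on the log2 scale, but the call of Ppp1r37 was lost without Wt replicate 2 or 3 or any Fn replicate, and that of Ppp1r26 without replicate 1 or 3 of either genotype (adjusted p up to 0.14 and 0.12). Ppp1r21, an endosomal protein gene, was the 1 member of the group that rose, by 0.84 (adjusted p = 0.00021).

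Of the 12 PP1 inhibitor genes 7 were tested, of which 4 fell and 1 rose, against 24.7% lower and 44.9% higher among all genes. The 4 include Ppp1r2, whose probe sets do not move together, and the median of the 7 was -0.39 on the log2 scale. Ppp1r11, known as inhibitor-3, had signals of 8952, 9752 and 10504 in Wt and 2998, 3123 and 3084 in Fn testes. The Fn arrays agreed closely, and the log2 difference was -1.66 (SE 0.077, limma adjusted p = 3e-07). Its dimmer probe set fell by 0.51 on the log2 scale (adjusted p = 0.013). Ppp1r1c, of the inhibitor-1 family, had 893, 1143 and 1257 in Wt and 94.7, 141 and 107 in Fn testes, a log2 difference of -3.27 (adjusted p = 9.3e-07). Ppp1r14b fell by 0.39 (adjusted p = 0.0069). Ppp1r14bl, named for its likeness to Ppp1r14b and in none of the role groups, had 3381, 3600.0 and 4347 in Wt and 316, 357 and 241 in Fn testes, a log2 difference of -3.64 (adjusted p = 2.3e-07). Whether its probe set also reads Ppp1r14b was not tested.

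Ppp1r2, known as inhibitor-2, went from a Wt mean of 4815 ± 334 to an Fn mean of 2944 ± 257 (SD, n = 3 each) by its brightest probe set, a log2 difference of -0.71 (limma adjusted p = 0.00013). Its 4 probe sets ran from this fall through -0.10 and 0.27, which did not pass, to a rise of 0.54 (adjusted p = 0.025), and the log2 difference of their mean was 1.5e-05 (adjusted p = 1.0). Several pseudogenes carry the name of Ppp1r2, and whether its probe sets also read them was not tested. Ppp1r14a, known as CPI-17 and as an inhibitor of myosin phosphatase in smooth muscle, was the 1 inhibitor that rose, with 323, 367 and 527 in Wt and 843, 730.3 and 777 in Fn testes (log2 difference 0.98, adjusted p = 0.0011). The peritubular myoid and stromal list had a median log2 difference of 0.98, and whether the rise of Ppp1r14a has to do with it was not tested.

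The PP1 targeting genes that passed the test were higher, which was also the commoner direction among all genes. Of 7 genes that direct PP1 to myosin or actin 4 were higher (57.1%) and 0 lower. Of 4 glycogen-targeting genes tested 3 were higher (75%) and 0 lower. Among all genes 44.9% were higher and 24.7% lower, and both lists are short. With arrays centred on their medians, the calls of the glycogen-targeting Ppp1r3d and Ppp1r3f were lost (adjusted p = 0.056 and 0.084) and that of Ppp1r3c was kept. Ppp1r9a, encoding neurabin, had signals of 1133, 1363 and 1092 in Wt and 2211, 2399 and 2743 in Fn testes, a log2 difference of 1.04 (SE 0.12, limma adjusted p = 7.5e-05), and its other 2 probe sets tested also rose. The actin-binding Ppp1r18 rose by 0.82, the myosin phosphatase subunit Ppp1r12a by 0.64 and the endothelial Ppp1r16b by 0.81. Ppp1r3c, which brings PP1 to glycogen, went from a Wt mean of 291 ± 52.9 to an Fn mean of 559 ± 84.9 (SD, n = 3 each), a log2 difference of 0.95 (adjusted p = 0.0013). Ppp1r3d rose by 0.82 (adjusted p = 0.02), but not without Wt replicate 2 (adjusted p = 0.061) or Fn replicate 2 (0.064), nor without the filter (0.053).

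Of the nuclear PP1 regulators, Ppp1r8, known as NIPP1, rose by 0.72 (limma adjusted p = 0.00018) by its brighter probe set and by 0.83 by the other. Ppp1r7, known as SDS22, had signals of 1514, 1636 and 1663 in Wt and 982, 1028 and 758 in Fn testes by its brighter probe set, a log2 difference of -0.81 (adjusted p = 0.00048), whereas its dimmer one rose by 0.47 (adjusted p = 0.011). The mean of both did not pass (-0.17, adjusted p = 0.17), so the direction of Ppp1r7 is not settled. Ppp1r15b and Ppp1r15a, which direct PP1 to the translation factor eIF2 alpha, rose by 0.64 and 0.42. The call of Ppp1r15a was lost without replicate 1 or 3 of either genotype (adjusted p up to 0.068) and with arrays centred on their medians (0.21). Ppp1r13l, encoding the p53-binding iASPP, had 1432, 2081 and 2668 in Wt and 678, 773 and 749.5 in Fn testes, a log2 difference of -1.45 (adjusted p = 0.00018), and its other probe sets were also lower, with -1.44 and -1.34 and, for the dimmest, an Fn level under the filter. Its relative Ppp1r13b had a log2 difference of 0.01 and did not pass (adjusted p = 0.95).

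**Figure D4:**
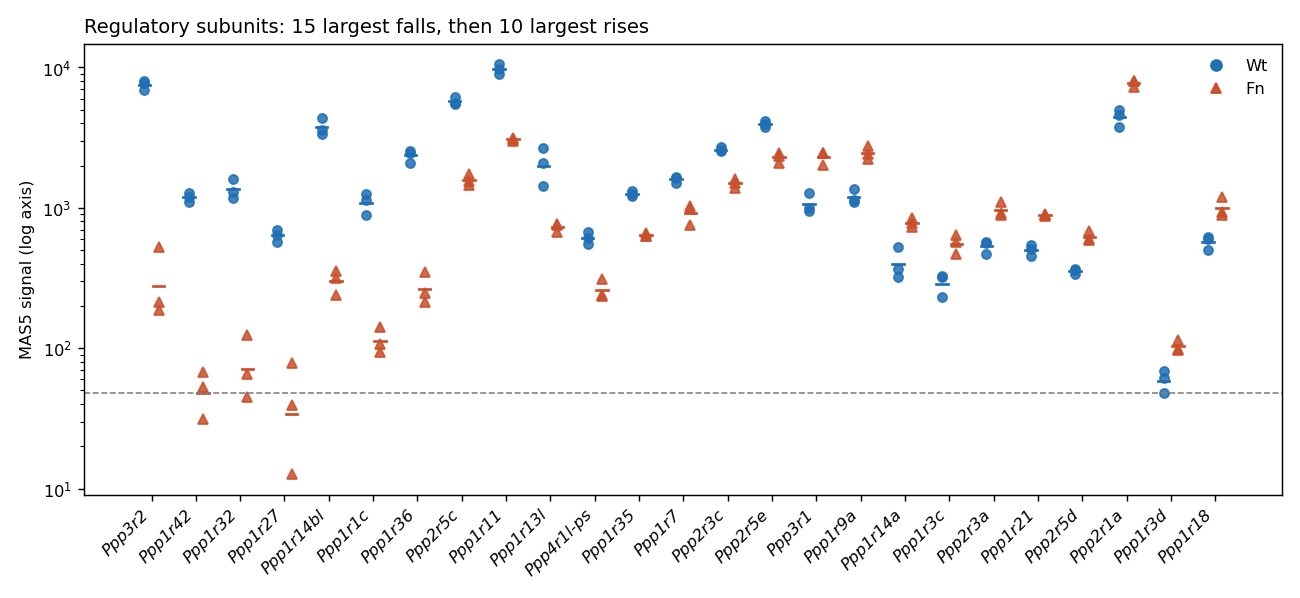
Signal (MAS5, log axis) of the 15 regulatory genes with the largest falls, then the 10 with the largest rises, by array, with circles for the 3 Wt and triangles for the 3 Fn samples. Short bars mark geometric means and a dashed line marks the filter at 48; the genes were picked for groups that do not overlap, the falls run from -4.77 in Ppp3r2 to -0.79 in Ppp2r5e on the log2 scale, and the rises from 1.11 in Ppp3r1 to 0.82 in Ppp1r18.

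The PP2A regulatory subunits moved in both directions. Ppp2r1a, the main scaffold, had signals of 4568, 4974 and 3776 in Wt and 8005, 8044 and 7296 in Fn testes, a log2 difference of 0.82 (SE 0.1, limma adjusted p = 0.00012). Its 5 probe sets rose by 0.78 to 0.82. The second scaffold, Ppp2r1b, did not pass, with 1689.9, 1612 and 1504 in Wt and 2079, 1814 and 1559.8 in Fn testes (log2 difference 0.17, adjusted p = 0.22). Among the 5 B prime (B56) subunits, which bring PP2A to substrates such as those at centromeres, Ppp2r5c and Ppp2r5e were lower and Ppp2r5a, Ppp2r5b and Ppp2r5d higher. Ppp2r5c had 5493, 5552 and 6154 in Wt and 1556, 1748 and 1445 in Fn testes, a log2 difference of -1.86 (adjusted p = 4.7e-07). With the mean of its 7 probe sets, of which 2 were called higher, it was -1.10. Ppp2r5e fell from a Wt mean of 3967 ± 189.7 to an Fn mean of 2294 ± 184 (SD, n = 3 each), a log2 difference of -0.79, and Ppp2r5d rose by 0.82, Ppp2r5a by 0.81 and Ppp2r5b by 0.49. The call of Ppp2r5b was lost without any array but Fn replicate 2 (adjusted p up to 0.13), with the replicate number as a block (0.052) and with arrays centred on their medians (0.22).

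Of the B double prime subunits, which bind calcium, Ppp2r3c had 2549.8, 2562 and 2698 in Wt and 1513, 1598 and 1375 in Fn testes (log2 difference -0.80, limma adjusted p = 6.9e-05, or -0.33 and 0.15 with the mean of its probe sets). That mean includes a probe set under the filter, with signals of 2.7 to 6.2. Ppp2r3d fell by 0.71 and Ppp2r3a rose by 0.86 on the log2 scale, the latter by all 3 of its probe sets. Of the B subunits Ppp2r2d fell by 0.36 (adjusted p = 0.019), a call lost without Wt replicate 1 or 3 or Fn replicate 2 (adjusted p up to 0.064), while Ppp2r2a and Ppp2r2c did not pass, with log2 differences of 0.19 and 0.36. Ppp2r2a also had a dim probe set that rose by 1.12 (adjusted p = 0.00046).

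Of 22 genes listed as PP2A partners and members of STRIPAK, a complex that pairs PP2A with kinases, 12 were higher and 6 lower (54.5% and 27.3%, against 44.9% and 24.7% of all genes), with a median log2 difference of 0.50, or 0.18 relative to all genes. Igbp1b, a close relative of the PP2A-binding Igbp1, fell from a Wt mean of 859 ± 62.9 to an Fn mean of 166 ± 38.7 (SD, n = 3 each), a log2 difference of -2.40 (limma adjusted p = 5.6e-06), whereas Igbp1 rose by 0.72 (adjusted p = 0.0019). Tiprl, which binds free PP2A-type catalytic subunits, fell by 1.05 and Strn4, a striatin of STRIPAK, by 0.66. The striatins Strn and Strn3 rose by 1.31 and 0.57. Also in the list, Anp32a rose by 1.15, Anp32e by 1.10, Cip2a by 0.76, Mastl by 0.75, Arpp19 by 0.53 and Ensa by 0.48. Set (0.17, adjusted p = 0.089) and Anp32b (0.04, adjusted p = 0.7) did not pass, and Bod1 was lower (-0.54, adjusted p = 0.0009). The shugoshin gene Sgo1 rose by 0.87, while Sgo2a, whose product protects centromeric cohesin in meiosis with PP2A, did not pass (log2 difference -0.22, adjusted p = 0.12).

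Of the 6 PP4 regulators 3 were lower and 3 higher (50% each, against 24.7% and 44.9% of all genes). All but a pseudogene changed by less than 2-fold. Ppp4r1l-ps, the pseudogene, had signals of 557, 608 and 668 in Wt and 239, 309 and 234 in Fn testes (log2 difference -1.24, limma adjusted p = 0.00011), and 4 of its 8 probe sets fell while the other 4 did not pass. Ppp4r4 fell by 0.73 and Ppp4r3b by 0.40, and Ppp4r2 rose by 0.50, Ppp4r3a by 0.29 and Ppp4r1 by 0.23. The call of Ppp4r3a was lost without any array but Fn replicate 2, and those of Ppp4r1 and Ppp6r3 without any array but Wt replicate 3 (adjusted p up to 0.14, 0.17 and 0.11). With arrays centred on their medians these 3 had an adjusted p of 0.48, 0.65 and 0.58. Of the PP6 regulators Ppp6r3 rose by 0.25 (adjusted p = 0.039), and Ppp6r1 and Ppp6r2 did not pass, with log2 differences of -0.07 and -0.21.

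Some of these values turn on the probe set. Of 37 members with more than 1 probe set tested, 4 (Ppp1cc, Ppp1r2, Ppp1r7 and Ppp2r5c) had probe sets called in opposite directions. The 7 probe sets of Ppp2r5c fell into a set of 5 with log2 differences of -1.86, -0.76, -2.25, -1.88 and -2.19, and a pair of dimmer ones with 0.78 (limma adjusted p = 0.0019) and 0.50 (adjusted p = 0.0075). Whether they read different transcripts was not tested. The brightest probe set of 7 members tested is of a kind that the maker marks as sharing probes with other transcripts, namely those of Ppp1r13b, Ppp1r13l, Ppp1r16a, Ppp1r42, Ppp2r1a, Ppp2r2d and Ppp5c. The 37 members read by a single probe set, among them Ppp3r2, Ppp1ca, Ppp1r36 and Ppp4c, have no such check.

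**Figure D5:**
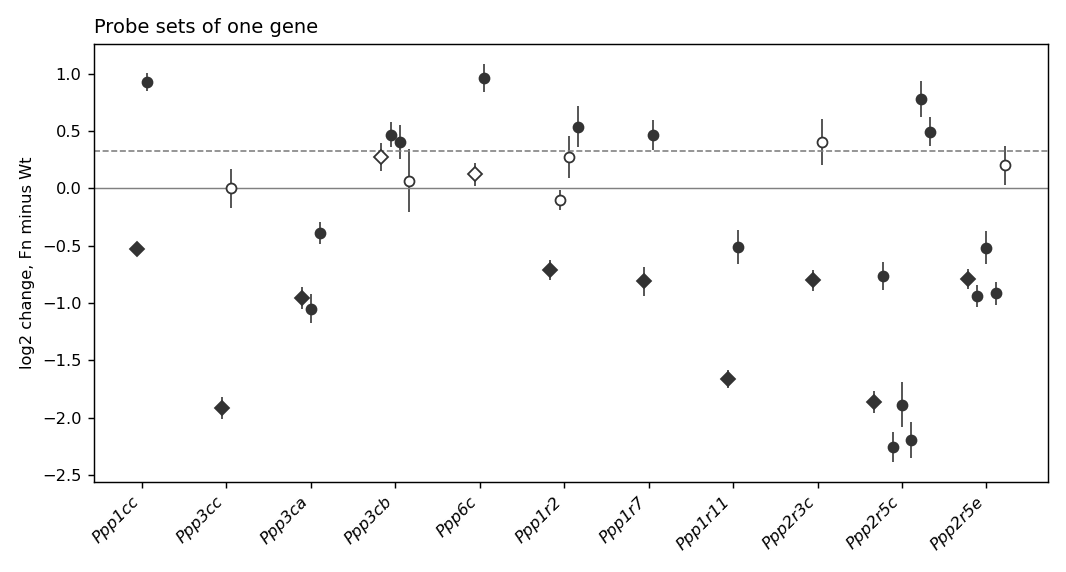
Log2 difference in MAS5 signal, Fn minus Wt, of every probe set tested for 11 members, with standard errors from limma (3 arrays per genotype). Diamonds are the brightest probe set of a gene, filled symbols are past the threshold, and grey and dashed lines mark 0 and the all-gene median of 0.32; Ppp1cc, Ppp1r2, Ppp1r7 and Ppp2r5c have filled symbols on both sides of 0.

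Among 17 tested genes of the PPM, PPEF and PHLPP phosphatases, which act on serine and threonine without these subunits, 11 were higher and 3 lower (64.7% and 17.6%, against 44.9% and 24.7% of all genes), with a median log2 difference of 0.57, or 0.25 relative to all genes. Those that fell were Ppm1d, a target of p53, by 1.30 on the log2 scale, the nuclear Ppm1g by 1.02, and Ppm1j by at least 2.54-fold, as its Fn signals lay under the filter. Ppm1g had signals of 7724, 7894 and 9027 in Wt and 4066, 4055 and 4004 in Fn testes. The largest rise was that of Ppm1l, by 1.29 (limma adjusted p = 2.6e-05).

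The 10 members under the filter were Ppp1r1a, Ppp1r14d, Ppp1r17, Ppp1r2-ps7, Ppp1r2-ps9, Ppp1r3a, Ppp1r3b, Ppp1r3g, Ppp2r2b and Ppp2r2cos, and none was tested. Of these, Ppp1r2-ps9, a pseudogene of inhibitor-2, had a group above the filter level, with 99.3, 32.4 and 76.6 in Wt and 3.5, 8.5 and 5.9 in Fn testes, at least 1.31-fold lower against that level. The members tested and not named above were Ppp1r10, Ppp1r12b, Ppp1r12c, Ppp1r14c, Ppp1r1b, Ppp1r3e and Ppp1r3f. Only Ppp1r3f passed among them, with a rise of 0.64 on the log2 scale (limma adjusted p = 0.025) that was lost without Wt replicate 2 (0.080) or Fn replicate 1 (0.099) and with arrays centred on their medians (0.084), and the log2 differences of the others ran from -0.13 to 0.62.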

How the data were processed

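Whole-testis RNA of 3 Wt and 3 Fn samples at P21 had been hybridised as biotin-labelled cRNA, 1 Affymetrix Mouse Genome 430 2.0 array per sample. The intensity values are MAS5 signals that the authors deposited, scaled so that the trimmed mean of each array is about 498. The study's own selection, more than 2-fold in GeneSpring, was not used here, nor were detection calls. The precision is limited by 3 arrays per genotype.

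From the 45037 probe sets, signals were floored at 0.1 and taken to log2, and the 27022 at or above the 40th percentile of the mean (a signal of 48) were fitted with limma 3.58.1 in R 4.3.3 (lmFit, then eBayes with trend), Fn minus Wt, with Benjamini-Hochberg adjustment over all of them and a threshold of 0.05. Of all probe sets, 34945 name 1 gene, 932 several and 9160 none, and genes were read from probe sets of the first kind. A fold against a group under the filter level was computed against that level. On simulated data with 3 arrays per group, recovery was read from 50 probe sets for each size of change, among 27022. There, 94% of 4-fold falls, 52% of 2-fold falls, 70% of 2-fold rises and 100% of 4-fold rises were found, and 4.82% of the calls were false. Whether these shares carry over to data with 24.7% of genes called lower and 44.9% higher was not tested.

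Genes were named by rule: all catalytic subunits, both genes of 7 paralog pairs, the 15 largest falls and 10 largest rises among regulatory genes that passed without overlap of the groups, genes with probe sets called in opposite directions, genes under the filter with 1 group above its level, and Dazap1. The members, the lists and the rule were chosen with earlier results of these data known. Replicate numbers are shared by the groups. The deviations from the group means correlated at 0.13, 0.12 and 0.16 for arrays of the same number and at -0.15 to 0.04 for the others, which by these values alone pairs the samples by number. The labels state no pairing, the reported fit and the permutation test leave it out, and a fit with the number as a block was an alternative. The alternatives were other scalings, filters, pseudocount, probe set summary and prior, the replicate number as a block, and each array left out in turn. Quantile normalization of the paralog ratios was added after seeing the data. Promoter windows were read from RefSeq (GRCm38.p6), and 60 of the 79 members had 1 or more.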

Additional observations from a re-analysis of the deposited data

How the results depend on the processing

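The counts of members were 28 lower and 26 higher as reported, and 29 and 17 with arrays centred on their medians. Leaving out 1 array gave 24 to 27 lower and 19 to 24 higher. The median log2 change of the catalytic subunits, 0.13, became -0.033 with arrays centred on their medians, -0.0043 with the 75th percentile and 0.22 with the mean of all probe sets, and 0.047 (without Wt replicate 2) to 0.17 with 1 array left out. That of the regulatory genes, 0.17, became 0.0091 with the medians, 0.043 after quantile normalization, 0.038 with the 75th percentile, -0.032 with a filter at the 60th percentile, 0.025 with the mean of all probe sets, and 0.040 (without Fn replicate 3) to 0.20 with 1 array left out. With the mean of all probe sets Ppp1cc turned to 0.20 and Ppp1r2 to 1.5e-05, since other probe sets of both genes moved the other way. The same setting brought the paralog ratio changes to -0.16 (Ppp3cc over Ppp3ca), -1.42 (Ppp3cc over Ppp3cb), -0.84 (Ppp1cc over Ppp1ca), -0.09 (Ppp1cc over Ppp1cb) and -0.62 (Ppp2cb over Ppp2ca). For Ppp2cb, Ppp2ca and Ppp3cb the mean includes a probe set under the filter. Quantile normalization, added after seeing the data, gave -1.71 for Ppp1cc over Ppp1ca and -1.10 for Ppp1cc over Ppp1cb. Without 1 array, the 7 ratio changes kept their sign and ran from -1.02 to -0.88, -2.29 to -2.11, -1.66 to -1.48, -1.03 to -0.86 and -1.30 to -0.95 for these 5 pairs, from -6.44 to -5.56 for Ppp3r2 over Ppp3r1 and from -0.73 to -0.58 for Ppp2r1b over Ppp2r1a. With the replicate number as a block 28 members were lower and 26 higher, 53 of the 54 calls were kept, Ppp2r5b lost its call (adjusted p = 0.052), Ppp3cb gained one (0.044) and no other member changed. Of 583 values of 39 genes named by rule over 15 alternatives, 554 kept direction and side of the threshold, 23 lost the call, 4 gained one and 2 turned. Of the 54 calls, 44 to 54 were kept per alternative, and 42 were kept whichever array was left out, while 12 were lost without at least 1. Beyond what the settings themselves change, the cause was not tested. Dim genes are limited by signal over background, and 10 members could not be tested.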

Other observations

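The promoter windows of the members, 73 windows of 300 bases for 60 genes, held a median of 23 CpG dinucleotides, against 19 over the 13887 windows of all genes tested. The median was 22.5 for members called lower, of which 22 of 28 had a window, and 25.5 for members called higher, of which 23 of 26 had one. Of the 12 members that fell by more than 2-fold, 9 had a window, and Ppp3cc, Ppp1r42 and Ppp4r1l-ps had none. The 10 windows of these 9 had a median of 10.5, from 3 to 36. The windows of all tested genes that fell by more than 2-fold had a median of 15. The letters TGACGT, searched on both strands as the core of the cAMP response element, were found in 12 of the 73 member windows (16.4%), in 10.8% of the windows of genes tested and in 7.51% of all promoter windows. The longer form TGACGTCA, which contains the shorter one, was found in 5 of the 73 member windows (6.85%), and in 2.87% and 1.79% of the others. Overlapping windows of Ppp2r2d are among these 5 and among the 12, so the same letters may be counted more than once. Among the 10 windows of the 9 members that fell by more than 2-fold and had one, 0 held TGACGT. This says only that these letters were not in these windows. These are descriptions of the windows without a test.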
